A study of Rattus norvegicus with 60 samples.

Results

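Interferon-stimulated genes are described here in rat skeletal muscle sampled during the first 48 h after a blunt injury. The set was chosen by name, with earlier results of these data known. It holds 38 genes, all present in the deposited table of 20662 genes. RNA of the right hind limb muscle was sequenced in 60 libraries of male Sprague-Dawley rats, 6 to 7 weeks old by the study's methods. By the labels, 6 libraries come from uninjured control rats. The others were taken after a weight had been dropped on the limb, with 7 libraries each for the times of 4 and 20 h and 8 each for 8, 12, 16, 24 and 48 h. The injured rats had received chloral hydrate as anesthetic. By the study's methods all rats, controls included, were killed with a lethal dose of it. The labels name no genetic change in any group. The model is a contusion of whole muscle, so each library mixes muscle fibers with every other cell of the sampled tissue.

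Interferons are secreted proteins that cells release, for example when they sense viral or displaced nucleic acid. Type I interferons signal through JAK kinases to a complex that includes STAT2 and IRF9 and binds an element named ISRE in promoters, whereas the response to interferon gamma acts through an element named GAS. The induced genes encode sensors of nucleic acid, transcription factors, proteins that attach or remove ISG15, antiviral effectors, chemokines and parts of antigen presentation. In injured muscle, infiltrating leukocytes, endothelial cells and muscle cells can all carry such transcripts.

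No column was given a time point, so no group is compared with another. Each of the 60 columns is headed by a library name, and these names disagree with the normalized values given under the same names in the study's supplement. Over 1288 genes, each of the 49 libraries compared had its highest correlation with a column of another name (r of 0.9988 or more), and 0 with the column of its own name (r between 0.9348 and 0.9863). These best matches were 49 different columns, and no second-best correlation exceeded 0.9892. By a rule set for this description, however, a column was not to be assigned by its place or its values. The 38 genes are therefore described over the 60 libraries without groups. Their time course was left out by this choice and is not shown to be beyond recovery. Every other correlation given is a Spearman correlation over these libraries, which holds differences between time points together with those between rats. The study removed samples it judged abnormal before its own analyses, whereas all 60 libraries are used here.

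The column totals ran from 16372673 to 34931323 reads and fell into 24 libraries under and 36 over 25000000. All values are normalized counts, which are the deposited counts divided by a size factor of the library. Transcripts of muscle fibers were abundant in every library, with at least 323956 normalized counts of Acta1, the skeletal muscle actin. All 38 genes passed the filter of a mean of at least 10 reads, as did 13466 genes in all, and their mean count ran from 35.5 (Zbp1) to 1891 (Bst2). In 2 libraries the mean log2 level of the 38 genes stood apart on the low side, at 7.21 and 7.25, below 7.80 in the next library and a median of 8.40. Of the 38 genes, 21 had their lowest value in one of these 2 libraries. Both libraries were low in natural killer cell markers, which ranked 4 and 2 of 60 from the lowest, and high in muscle fiber markers, which ranked 53 and 54. The T cell, macrophage and neutrophil markers ranked 17, 33 and 28 in the first and 1, 5 and 7 in the second. Other libraries were high in lymphocyte markers. The 3 highest had mean log2 levels of 10.3, 9.78 and 9.44 for T cell and 10.2, 9.65 and 9.56 for B cell markers, against medians of 5.23 and 3.41. The next 3 were at 8.79, 7.61 and 7.52 for T cell and 8.67, 7.87 and 7.43 for B cell markers. The library after them was at 7.18 for T cell markers, so no clear gap sets off the 6 left out in later checks. The library highest in T cell markers held the highest value of Adar, Irf9, Trim25, Dtx3l, Parp14 and Samhd1, and the next highest that of Zbp1. The part of any of these cells in the levels of the 38 genes was not tested.

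The sequences before the start of the genes are shown first, since the ISRE and GAS elements are what the members are known to share. RefSeq promoters on the GRCr8 assembly, 250 bases before to 50 bases after the start, matched 29 of the 38 genes. None was matched for Ddx58, Dhx58, Zbp1, Adar, Isg15, Usp18, Ifit2, Mx2 and Rtp4, which were not searched. The ISRE was searched on both strands as GAAA, any 2 bases and GAAA again. It occurred in 17 of the 29 promoters (58.6%) and in 3.92% of all 33469 promoters. The letters TTCNNNGAA, which read the same on both strands and were searched for the GAS element, occurred in 9 of the 29 (31%) and in 8.87% of all promoters. At least 1 of these elements was found in 23 of the 29 (79.3%, against 12.3% of all), and 3 promoters held both. A pair of further patterns was also searched on both strands. The ISRE letters with 3 bases between the GAAA copies were in 3 of the 29 promoters (10.3%, against 2.86%), and the kappa B letters (GGGA, any base, TTTCC) were in 2 of the 29 (6.9%, against 0.362%). A match of letters describes the sequence and does not show that a factor binds there.

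The windows below carry the ISRE letters in capitals and belong to genes whose levels are described further on. Each is written 5′ to 3′ on the strand of the gene, so that letters in the reverse direction read TTTC, any 2 bases and TTTC, and each lies wholly before the start.
Irf7, chr1:205800068-205800107, minus strand: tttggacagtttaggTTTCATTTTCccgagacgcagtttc
Eif2ak2, chr6:21941123-21941153, plus strand: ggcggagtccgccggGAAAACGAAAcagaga
Parp14, chr11:78408043-78408082, plus strand: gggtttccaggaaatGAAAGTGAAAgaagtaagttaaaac
Ifit3, chr1:241527267-241527306, plus strand: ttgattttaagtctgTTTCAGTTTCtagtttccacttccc
Cxcl10, chr14:15988816-15988847, plus strand: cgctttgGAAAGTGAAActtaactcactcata
Ifi44, chr2:243303842-243303881, minus strand: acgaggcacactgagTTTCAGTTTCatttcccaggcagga
Gbp5, chr2:233910928-233910967, plus strand: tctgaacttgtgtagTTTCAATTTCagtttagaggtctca
Bst2, chr16:18255068-18255107, minus strand: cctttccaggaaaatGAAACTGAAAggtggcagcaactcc

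The GAS letters are in capitals in the windows of a transcription factor, a chemokine and a GTPase that held no ISRE match in the same 300 bases.
Irf1, chr10:38417778-38417816, plus strand: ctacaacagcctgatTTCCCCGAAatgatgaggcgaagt
Cxcl11, chr14:15973478-15973501, plus strand: TTCTAGGAAaagtcacctacagca
Ifi47, chr10:33798633-33798671, plus strand: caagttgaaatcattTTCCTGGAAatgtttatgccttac

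The levels of the 38 genes varied over the libraries by a median of 3.25-fold. This spread is the ratio of the 90th to the 10th percentile, taken as a difference on the scale of log2(normalized count + 1), where its median was 1.70 over the 38 genes and 1.16 over all 13466 genes. A spread of at least 2 on the log2 scale, which is 4-fold, was reached by 8 of the 38 genes (21.1%) and by 22.4% of all genes, so a wide spread was about as frequent among them as among genes at large. The count depended on the scaling. With counts divided by column totals, 17 of the 38 genes (44.7%) and 25.8% of all genes reached it. The roles used next were assigned after a first look at the values. By role, the median spread on the log2 scale was 3.52 for the 3 chemokines, 1.87 for the 14 effectors, 1.67 for the 4 GTPases and antigen transport genes, 1.29 for the 6 sensors, 1.19 for the 4 transcription factors and 1.07 for the 7 genes of ISG15, ubiquitin and ADP-ribose transfer.

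**Figure D1:**
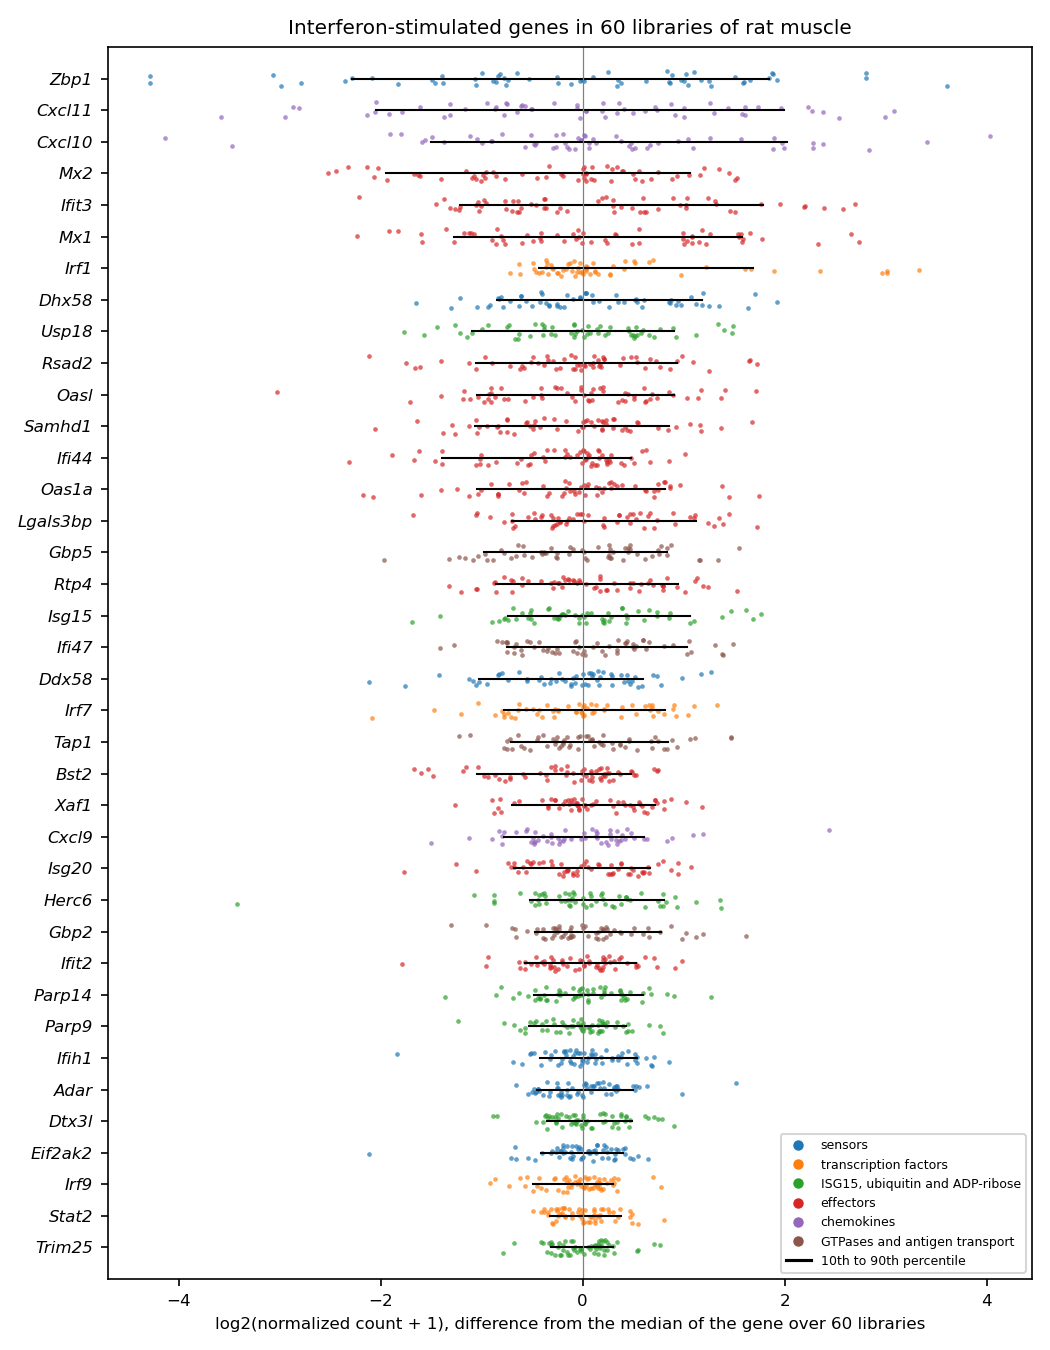
Levels of the 38 genes in the 60 libraries, as the difference of log2(normalized count + 1) from the median of the gene. Each point is 1 library, colors mark roles, and black bars run from the 10th to the 90th percentile. Zbp1, Cxcl11 and Cxcl10 at the top have spreads of 4.13, 4.04 and 3.52, and Trim25 at the bottom 0.62.

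Among the 6 sensors, Zbp1 varied most. Zbp1 binds left-handed nucleic acid and can start cell death. Its lowest library had 0 normalized counts, the median was 18.5 and the highest 236, with 0 reads in 2 libraries and a spread of 4.13. Without the 6 libraries highest in T cell markers, its highest value was 135 and its spread 3.89. Dhx58, a helicase without a signaling domain that modulates the other RIG-I-like receptors, had 35.7 at the lowest, 114 at the median and 435 at the highest, with a spread of 2.02. The receptors Ddx58 (RIG-I) and Ifih1 (MDA5), both of which detect viral RNA, had spreads of 1.62 and 0.96. Eif2ak2, the kinase PKR that halts translation on sensing double-stranded RNA, was among the steadiest of the 38 genes. It ran from 191 over a median of 827 to 1295, with a spread of 0.81. Adar, which edits double-stranded RNA, ran from 316 to 1435 with a spread of 0.95.

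Of the transcription factors, Irf1 had the widest spread. Irf1 is induced directly by interferon gamma and by other cytokines. It had 498 normalized counts at the lowest, 821 at the median and 8236 at the highest, and a spread of 2.12. Its values were skewed upward, since 5 libraries were at 4 times its median or more and 0 at 0.25 of it or less. Irf7, the factor that amplifies type I interferon production, ran from 249 over a median of 1055 to 2648 with a spread of 1.59. Stat2 and Irf9, which take part in the ISRE-binding complex, were close to steady. Stat2 had 734, 1032 and 1801 normalized counts at the lowest, the median and the highest, and Irf9 had 347, 656 and 1123, for spreads of 0.70 and 0.79.

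The genes of ISG15, ubiquitin and ADP-ribose transfer included none with a spread of 2 or more. Isg15, the ubiquitin-like protein joined to targets after interferon, ran from 62.6 over a median of 205 to 699 normalized counts. Usp18, which removes ISG15 and damps signaling at the interferon receptor, ran from 48.1 over 166 to 468, and its spread of 3.99-fold lay just under the limit of 4-fold. Herc6, the ligase that attaches ISG15 in mice, had 29.1 in its lowest library against a median of 321. The partner proteins Parp9 and Dtx3l had spreads of 0.96 and 0.84, and Parp14, another ADP-ribosyltransferase, 1.07. Trim25, a ubiquitin ligase that acts on RIG-I, had the narrowest spread of all 38 genes. Its levels were 303 at the lowest, 524 at the median and 889 at the highest, with a spread of 0.62.

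Among the antiviral effectors, Mx2, Ifit3 and Mx1 varied most. Mx proteins are GTPases that block viral ribonucleoproteins. Mx2 had 68.5 at the lowest, 396 at the median and 1143 at the highest, with a spread of 3.01, and Mx1 had 58.9, 280 and 1866 with a spread of 2.86. Mx2 was skewed downward and Mx1 upward. In 6 libraries Mx2 was at 0.25 of its median or less and in 0 at 4 times the median or more, whereas for Mx1 the libraries numbered 1 and 3. Ifit3, a partner in the complex that binds viral RNA, had 135, 638 and 4125 normalized counts, a spread of 8.01-fold and 5 libraries at 4 times its median or more. Its relative Ifit2 stayed within 264 to 1804 with a spread of 1.10.

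The other effectors had spreads between 1.34 and 1.99. Rsad2 (viperin), which makes a chain-terminating nucleotide, ran from 53.3 to 775 normalized counts. Oas1a, which makes the activator of RNase L, ran from 37.4 to 583, and Oasl, a relative that acts on RIG-I, from 26.2 to 723. Samhd1, which degrades deoxynucleotides, ran from 67.8 to 917, and Isg20, an exonuclease of RNA, up to 106. Bst2 (tetherin), which holds virus particles at the membrane, had the highest mean count but a spread of 1.53, from 588 to 3138. The remaining effectors were Ifi44 (spread 1.87), Lgals3bp, a secreted galectin-binding protein (1.82), the chaperone Rtp4 (1.80) and Xaf1, an antagonist of the apoptosis inhibitor XIAP (1.41).

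The chemokines that bind Cxcr3 and attract activated T cells differed in how widely they varied. Cxcl10 had 7.28 normalized counts at the lowest, 145 at the median and 2384 at the highest, with a spread of 3.52. Cxcl11 had 1.87, 33.4 and 290 with a spread of 4.04. Both had 6 libraries at 4 times their median or more, and Cxcl11 had 8 at 0.25 of it or less. Cxcl9, the member of this group most dependent on interferon gamma, had 291, 826 and 4472, with a spread of 1.39. A single library lay at its top, beyond 4 times the median.

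The GTPases and Tap1 varied moderately. Gbp2 and Gbp5, which coat microbial membranes, had spreads of 1.25 and 1.81, and Ifi47, an immunity-related GTPase, 1.78. Tap1, the peptide transporter that loads class I molecules, ran from 274 over 643 to 1780 normalized counts with a spread of 1.55. Reads that fit more than 1 place were not counted, so the levels of close relatives (Mx1 and Mx2, the Oas, Ifit and Gbp families) are uncertain where their sequences coincide.

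The levels of the 38 genes were correlated over the libraries more than those of genes at large, though not in every pair. In the 703 pairs the median correlation was 0.36, with 242 pairs (34.4%) at 0.5 or more, whereas all gene pairs had a median of -0.003 and 8.05% at 0.5 or more. Against the mean log2 level of the other 37 genes, 22 of the 38 (57.9%) had a correlation of at least 0.5. The same held for 1.2% of all genes and 1.04% of the genes outside the set. Without the 2 libraries lowest in the set the median over pairs was 0.32 and 21 genes reached 0.5, and without the 6 highest in T cell markers 0.38 and 22. With counts divided by column totals, the median over pairs was 0.53 against 0.22 over all gene pairs, and 33 of the 38 genes (86.8%) and 34.8% of the genes outside the set reached 0.5 with the 38 genes.

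The genes nearest to the rest were not those of widest spread. Adar (0.83), Irf7 (0.83), Parp14 (0.82), Ifi47 (0.81), Eif2ak2 (0.81) and Stat2 (0.79) had the highest correlations with the other members. The lowest were those of Trim25 (0.03), Bst2 (0.21), Cxcl9 (0.21), Ifit2 (0.31) and Gbp5 (0.31). The counts by role that follow rest on roles assigned after a first look at the values. By role, 5 of 6 sensors, 3 of 4 transcription factors, 6 of 7 genes of ISG15, ubiquitin and ADP-ribose transfer and 3 of 4 GTPases and antigen transport genes reached 0.5, against 4 of 14 effectors and 1 of 3 chemokines. An ISRE match did not separate the genes in this respect. The 17 genes with one had a median correlation of 0.55 with the others (9 at 0.5 or more), and the 12 without one 0.68 (7 at 0.5 or more).

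The tightest pairs lay both between roles and within a role. Usp18 and Mx1 correlated at 0.91, Ifi47 and Tap1 at 0.89, Dhx58 and Usp18 at 0.89, Dhx58 and Mx1 at 0.88, and Ifit3 and Oasl at 0.87. Ddx58 and Mx2 correlated at 0.85, and Mx2 and Rtp4 at 0.84. Neighbors on the chromosome did not always move together. Parp9 and Dtx3l, which lie side by side, correlated at 0.72, Dtx3l and Parp14 at 0.66, Cxcl11 and Cxcl10 at 0.70, and Cxcl10 and Cxcl9 at 0.45, but Ifit2 and Ifit3 at -0.03. The paralogs Mx1 and Mx2 correlated at 0.75.

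In 122 of the 703 pairs (17.4%) the correlation was below 0, against 50.3% of all gene pairs. The most opposed pairs had a gene of the set around Ifit3 and Cxcl11 on one side and a gene of the set around Ddx58 and Mx2 on the other. Ddx58 and Cxcl11 correlated at -0.46, Ifit3 and Gbp5 at -0.44, Ifit3 and Bst2 at -0.44, Ddx58 and Ifit3 at -0.44, and Ifi44 and Cxcl11 at -0.43. Within their own set, Ifit3 and Cxcl11 correlated at 0.86. Ifit3, Ifi44, Gbp5 and Bst2 all carry the ISRE letters in the windows printed above. No promoter was matched for Ddx58 and Mx2, so these were not searched. In Cxcl11 the 300 bases held the GAS letters and no ISRE match, and Bst2 held the GAS letters as well as the ISRE. With column totals as the scale, the pairs below 0 numbered 29 and the lowest correlation was -0.35.

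**Figure D2:**
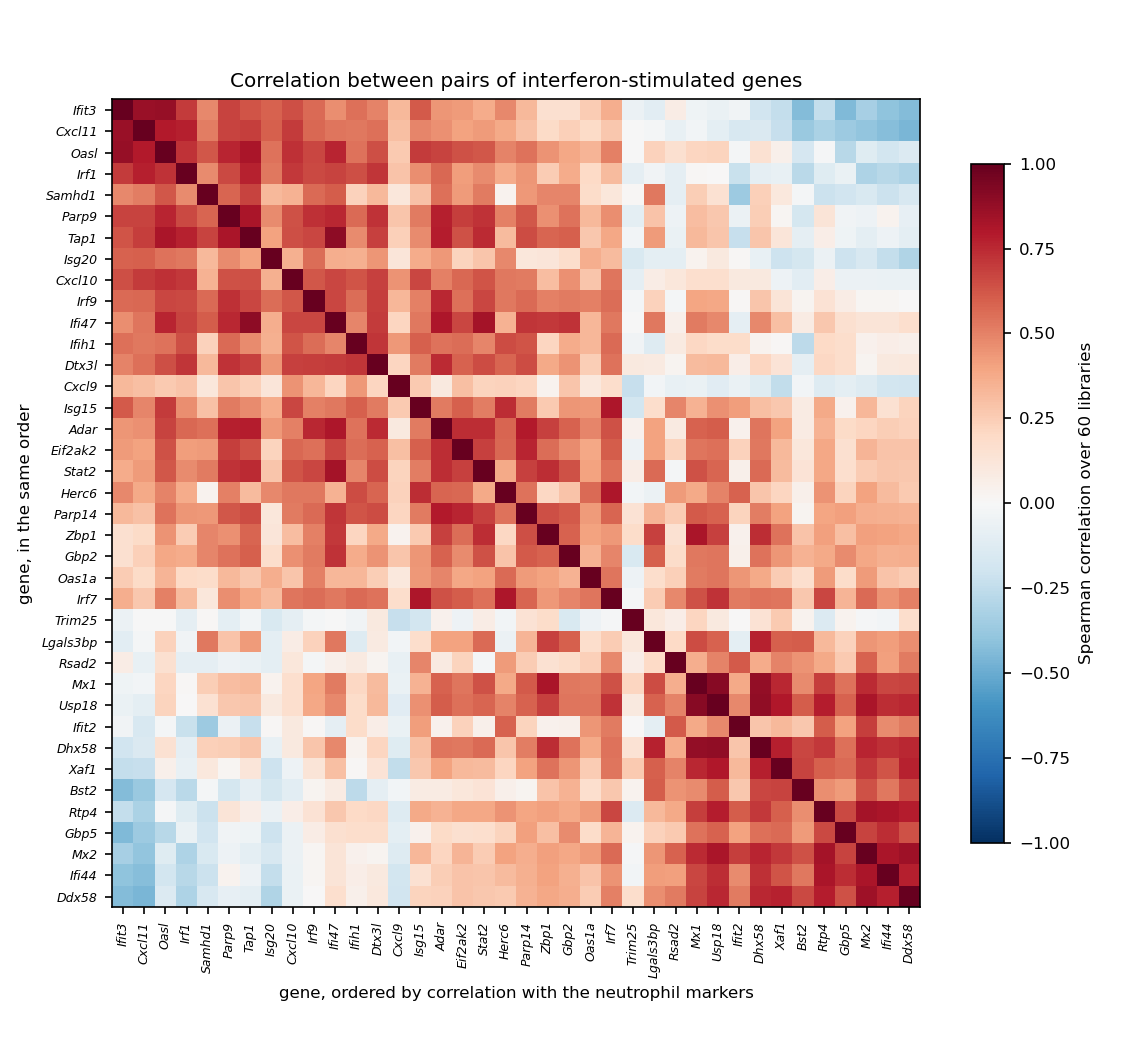
Spearman correlations over 60 libraries between all pairs of the 38 genes, ordered on both axes by the correlation of each gene with the neutrophil markers. Red is positive and blue negative. The corner where Ifit3 and Cxcl11 meet Ddx58, Ifi44 and Mx2 is blue, down to -0.46, in a field with a median of 0.36.

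**Figure D3:**
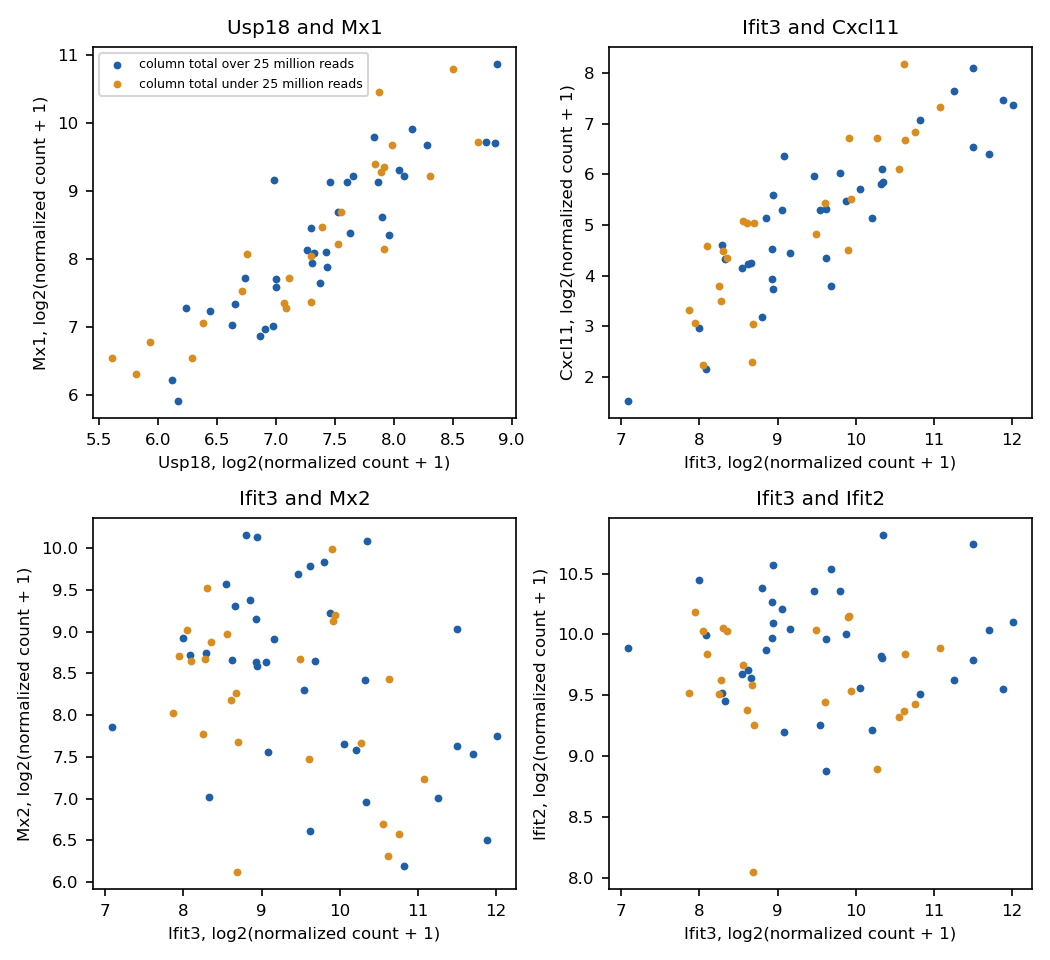
Levels of gene pairs in the 60 libraries as log2(normalized count + 1), with libraries over and under 25000000 reads in blue and orange. Usp18 and Mx1 (0.91) and Ifit3 and Cxcl11 (0.86) rise together, whereas Ifit3 shows no such relation with its neighbor Ifit2 (-0.03), and its highest libraries are not the highest in Mx2.

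The opposed sets were also apart in their relation to neutrophil and to endothelial markers, a comparison chosen after the values were seen. Of the 8 markers (S100a8, S100a9, Csf3r, Cxcr2, Mmp8, Fpr1, Il1r2 and Camp), 7 passed the filter, their mean log2 level ran from 3.01 to 12.1 over the libraries, and Camp was at 0 in 3 libraries and Fpr1 in 19. Ifit3 (0.88), Cxcl11 (0.83), Oasl (0.73) and Irf1 (0.68) correlated positively with their mean, and Ddx58 (-0.66), Ifi44 (-0.62), Mx2 (-0.61), Gbp5 (-0.60) and Rtp4 (-0.54) negatively. In all, 9 of the 38 genes had a correlation of 0.5 or more and 5 one of -0.5 or less. These shares are near those of all genes, of which 17% were at 0.5 or more and 15.2% at -0.5 or less, so an association with the markers was not particular to the set. The sign of the relation was the same in both depth ranges for the genes examined, but its size differed for Ifi44. In the libraries under 25000000 reads and in those over it, Ifit3 had 0.93 and 0.85, Cxcl11 0.84 and 0.82, Mx2 -0.51 and -0.68, Ddx58 -0.67 and -0.63, and Ifi44 -0.40 and -0.73. The genes at -0.5 or less numbered 3 in the libraries under 25000000 reads. Of the endothelial markers, 5 passed, with a mean log2 level from 10.3 to 11.8. With their mean, the members named for the neutrophil markers had the opposite sign. Tap1 (-0.70), Cxcl11 (-0.69), Ifit3 (-0.66), Oasl (-0.64) and Irf1 (-0.64) were negative. Ddx58 (0.52), Mx2 (0.51), Ifit2 (0.50), Bst2 (0.49), Rsad2 (0.47) and Gbp5 (0.47) were positive, and Ifi44 (0.43) and Rtp4 (0.32) less so. Ifit2 (-0.36) and Rsad2 (-0.15) were only weakly negative with the neutrophil markers. The library lowest in neutrophil markers (3.01) was also the highest in endothelial markers (11.8). The correlation between the neutrophil and the endothelial markers was not computed, so their relations to the members are not taken as separate. Both relations also hold differences between time points, including uninjured against injured muscle, which were not separated here. In all, 8 of the 38 genes were at -0.5 or less and 3 at 0.5 or more, against 13.8% and 10.7% of all genes. In whole tissue, fewer cells of a type and less RNA per cell cannot be told apart, and the part of neutrophil or endothelial content in the levels of these genes was not tested.

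Macrophage and T cell markers were closest to other members, though some members were shared. Samhd1 was at 0.59 with neutrophil, 0.64 with macrophage and 0.53 with T cell markers, and Tap1 at 0.58, 0.50 and 0.55. All 12 macrophage markers passed the filter, with a mean log2 level from 8.36 to 11.6. Lgals3bp correlated with them at 0.86 and Zbp1 at 0.73. Of the 38 genes, 8 were at 0.5 or more with macrophage markers and 0 at -0.5 or less, against 15.9% and 14.4% of all genes. Zbp1 also had the highest correlation with the 8 T cell markers (0.78), whose mean log2 level ran from 2.89 to 10.3 (0.72 without the 6 libraries highest in these markers), and Tap1 that with the natural killer cell markers (0.70). Ifit3 and Cxcl11, the genes closest to the neutrophil markers, were at 0.04 and 0.08 with macrophage markers. With natural killer cell markers they were at 0.45 and 0.53. Muscle fiber markers had their lowest correlation with Lgals3bp (-0.87). The part of these cells in the levels was not tested.

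**Figure D4:**
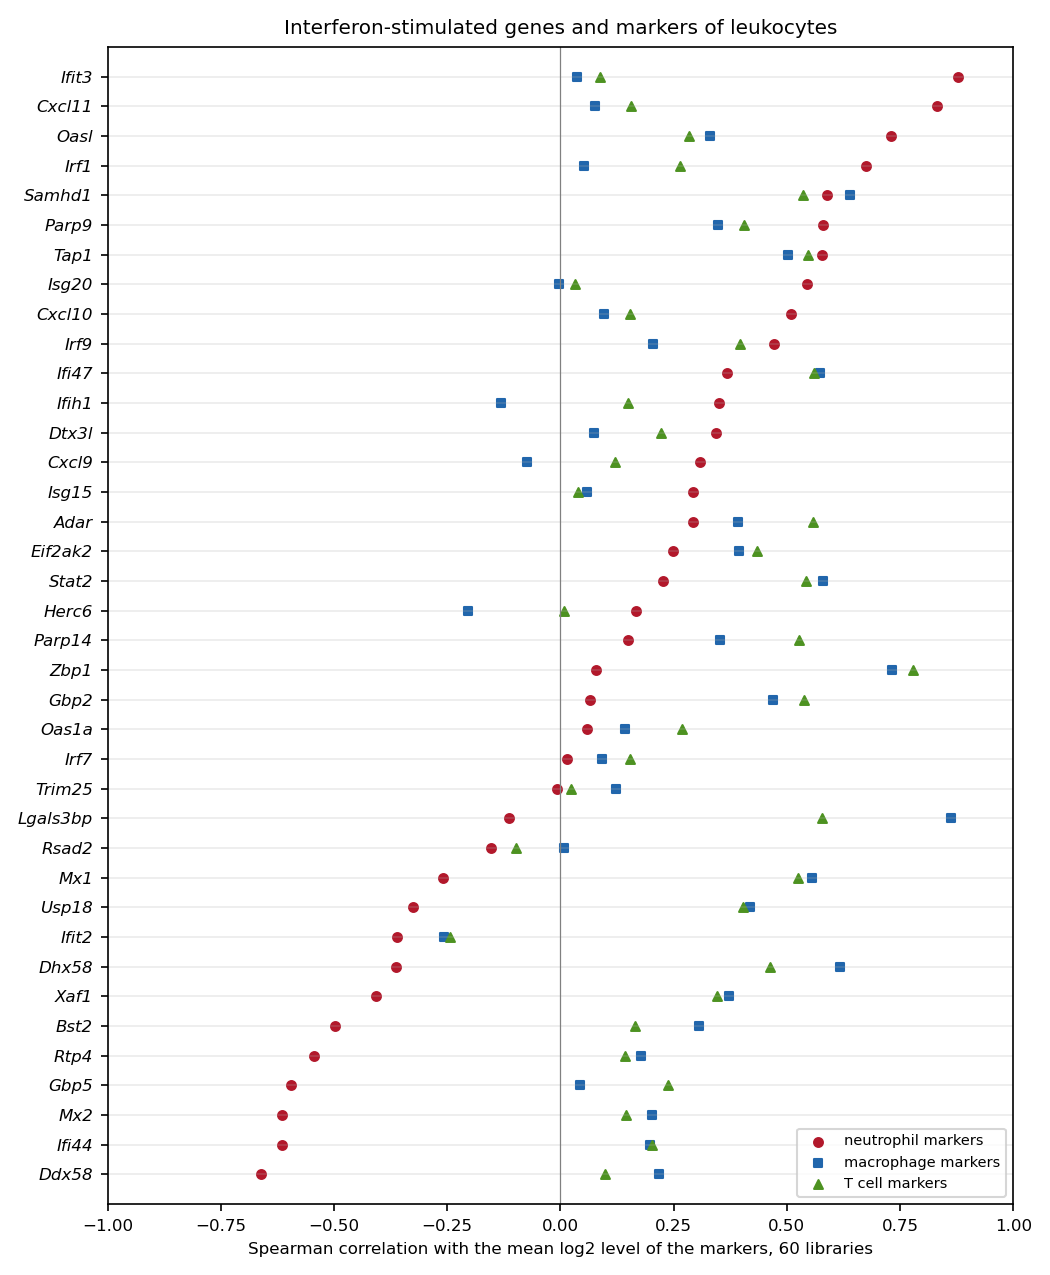
Spearman correlation of each of the 38 genes with the mean log2 level of neutrophil (red circles), macrophage (blue squares) and T cell markers (green triangles) over 60 libraries. The neutrophil correlations run from 0.88 for Ifit3 to -0.66 for Ddx58, while the highest macrophage correlation is that of Lgals3bp (0.86) and the highest T cell correlation that of Zbp1 (0.78).

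The interferon genes that were looked up and found in the table were hardly read. Other interferon genes are not described, and reads that fit more than 1 place were not counted. Ifna2 had 0 reads in all 60 libraries, Ifnb1 was read in 1, Ifnl3 in 2 and Ifng in 7, so changes in their levels were not detectable at this depth. Their receptors were present in every library. The lowest normalized counts were 1040 for Ifnar1, 394 for Ifnar2, 1890 for Ifngr1 and 500 for Ifngr2, with spreads between 0.68 and 1.01. Of the 22 genes of interferon ligands, receptors and signaling in the table, 18 passed the filter. Of these, 2 (11.1%, against 1.04% of genes outside the 38) reached 0.5 with the 38 genes. They were Cgas (0.61), which makes the second messenger of DNA sensing, and Ikbke (0.55), a kinase of interferon regulatory factors. Socs3, a feedback inhibitor of cytokine receptors, varied most in this list, from 79.2 to 24464 normalized counts, and correlated with the 38 genes at 0.14.

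Interferon-stimulated genes outside the 38 followed them in the mean of the list, but many did not do so closely as single genes. The table held 42 such genes, of which 39 passed the filter. Of these, 10 correlated at 0.5 or more with the 38 genes, against 1.04% of all genes outside the 38. They were led by Oasl2 (0.77), Sp110 (0.68), Oas2 (0.67) and Helz2 (0.65). Over the 39 genes the median was 0.41 and the lowest -0.09. The mean of the list correlated with that of the 38 genes at 0.88, and at 0.89 and 0.85 in the libraries under and over 25000000 reads. Antigen presentation was less close. Of its 20 genes that passed, B2m (0.63), RT1-A2 (0.57) and Psmb9 (0.57) reached 0.5, against the same 1.04%. The mean of this list correlated at 0.50.

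Among genes in none of the lists, those most like the mean of the 38 genes over the 60 libraries were Samd9 (0.84), Pml (0.76), LOC100910979 (0.74), RGD1565785 (0.68), Rab7b (0.67), Adgrg5 (0.66), Hsh2d (0.66), Prex1 (0.66), Ngfr (0.65) and Trpm2 (0.63). Samd9 ran from 29.1 over a median of 521 to 1400 normalized counts, with a spread of 1.63. Pml, which forms nuclear bodies, ran from 147 over 251 to 810 with a spread of 1.01.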

How the data were processed

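Muscle RNA of 60 rats was sequenced, 1 library each. The authors checked reads with FastQC and MultiQC and trimmed them with Trimmomatic. HISAT2 2.1.0 aligned the reads to rn6, and HTSeq 0.6.1 then gave the authors' count of uniquely placed reads per gene, with reverse strandedness and the Rnor_6.0 gene models (from the methods and processing notes). The deposited values are whole read counts per gene, not normalized.

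Size factors by the median of ratios, with a geometric mean of 1, scaled the counts, a pseudocount of 1 was added before log2, and genes with a mean of at least 10 reads were kept. Spread, ranges and Spearman correlations were computed without groups. Since headings and supplement name different libraries for the same values, the edgeR tests planned for each time point were not run, and no p-value is given. A label that names another tissue for the extraction was set aside, since source and markers name muscle. Full values were given for the 8 genes of widest and the 4 of narrowest spread, and the 10 genes outside the lists nearest to the mean were named. Members and lists were chosen with earlier results of these data known, and their roles were assigned after a first look at the values. The scripts were tested on simulated data. With 16372673 or more reads in a column, 1 read is a small share, and genes of few reads have correlations lowered by counting error. Alternatives were column totals, TMM factors of edgeR 4.0.16 (R 4.3.3), a total of at least 5 reads, Pearson correlation, each depth range alone and libraries left out. The work was done in Python 3.11.15 with scipy 1.17.1, pandas 2.3.3, matplotlib 3.10.9 and numpy 2.4.6. Promoters are from RefSeq, GRCr8.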

Additional observations from a re-analysis of the deposited data

How the results depend on the processing

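Scaling by column totals changed most. It raised the genes with a spread of 2 or more from 8 to 17, while TMM factors gave 10, and the genes at -0.5 or less with neutrophil markers fell in number from 5 to 3, as they did in the libraries under 25000000 reads. It moved the median of all genes by up to 0.4369 on the log2 scale in a library, against 0.0567 for TMM. The correlation of Trim25 with the other members turned from 0.03 to -0.065 without the 6 libraries highest in T cell markers and to -0.00721 in the libraries over 25000000 reads, and was 0.56 with column totals. Leaving out those 6 libraries, or the 2 lowest in the members, was chosen after seeing the data, as was the comparison with neutrophil markers. Over single genes and pairs, each recomputed under each alternative, 418 recomputed values stayed within 1.5 times the reported value. Of the others, 30 kept their sign but lay outside that range, and 2 changed sign. The tally leaves out the filter of a total of 5 reads, under which the 66 values are identical because all members pass both filters. The causes were not tested. No paired analysis was possible because no column was given a group, and for the same reason the DESeq2, unfiltered and replicate-block alternatives of the time point comparisons were not run. The interferon genes looked up had reads in 0 to 7 of 60 libraries, and whether more depth would show them was not tested.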
